A study of Mus musculus with 24 samples.

Results

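The genes that carry fatty acids into heart muscle and burn them in mitochondria were followed in hearts of mice after a stroke of the brain. A set of 33 genes was chosen by symbol in the annotation of the arrays and ordered by step: uptake, activation, carnitine shuttle, beta oxidation and regulation by peroxisome proliferator-activated receptors (PPAR). Of these, 29 were measured among 24011 named genes in all. Fabp3, Acsl1, Cpt1b and Ucp2 were not analysed here. Every mouse was a C57BL/6J animal, 8 weeks old, with no other genetic change given. Each mouse had either an ischemic stroke, set off by blocking a cerebral artery (MCAO, for middle cerebral artery occlusion), or a sham operation, and hearts were taken 24 h or 72 h later. The 4 groups, sham 24 h, MCAO 24 h, sham 72 h and MCAO 72 h, had 6 arrays each. Total heart RNA was hybridised to Affymetrix arrays, and all values are on the deposited log2 scale, where a difference of 1 is a doubling. The labels give no sex, infarct size or food intake, and do not say whether every array comes from a mouse of its own, so the p-values cover the spread among arrays, which may be technical.

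The adult heart draws most of its energy from long-chain fatty acids. They enter the cell through CD36 and fatty acid transport proteins, are joined to coenzyme A, cross the mitochondrial membranes as carnitine esters and are shortened in repeated cycles of beta oxidation, whose electrons pass to the respiratory chain. PPAR-alpha, a nuclear receptor that senses fatty acids, with its coactivator PGC-1alpha, drives many of these genes, and fasting raises the targets Pdk4, Angptl4, Ucp3 and Acot1.

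Because PPAR is known to bind paired AGGTCA half-sites, the 250 bases before the start of each gene were searched for them in RefSeq's promoter windows (GRCm38.p6). A single half-site, AGGTCA on one strand or TGACCT on the other, was in 14.0% of all 32851 windows. Of 25 measured genes with a window used here, 6 had it, in 6 of their 27 windows: Acadm, Acadvl, Cd36, Cpt1a, Echs1 and Ucp3. The paired form, AGGTCA repeated after any 1 base, which overlaps the half-site, was in 0.0335% of all windows and in 0 windows of these genes. The glucocorticoid receptor palindrome, AGAACA and TGTTCT with any 3 bases between, was in 0.00913% and likewise in 0 of them. A match describes the letters only. The windows of 5 genes are shown: Cd36, an uptake gene that rose at both times; Acot1 and Acot2, paralogs on chromosome 12 that both rose at 24 h; Echs1, whose change differed between the times; and Ucp3, which had the widest spread of the members in sham 24 h (SD 0.92) and MCAO 72 h (SD 1.71). Each is written 5′ to 3′ on the gene's own strand, in lower case with half-sites in capitals.
Cd36, chr5:17835897-17836146, minus strand: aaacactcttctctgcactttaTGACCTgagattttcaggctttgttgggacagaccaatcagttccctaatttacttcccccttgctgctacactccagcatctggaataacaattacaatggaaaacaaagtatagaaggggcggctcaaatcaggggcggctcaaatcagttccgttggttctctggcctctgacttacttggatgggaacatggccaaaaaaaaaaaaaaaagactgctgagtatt
Acot1, chr12:84009252-84009501, plus strand: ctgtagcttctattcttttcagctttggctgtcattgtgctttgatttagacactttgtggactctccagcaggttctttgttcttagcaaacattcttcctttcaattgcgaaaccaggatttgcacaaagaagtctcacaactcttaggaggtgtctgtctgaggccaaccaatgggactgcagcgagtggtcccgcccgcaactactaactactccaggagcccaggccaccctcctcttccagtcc
Acot2, chr12:83987611-83987860, plus strand: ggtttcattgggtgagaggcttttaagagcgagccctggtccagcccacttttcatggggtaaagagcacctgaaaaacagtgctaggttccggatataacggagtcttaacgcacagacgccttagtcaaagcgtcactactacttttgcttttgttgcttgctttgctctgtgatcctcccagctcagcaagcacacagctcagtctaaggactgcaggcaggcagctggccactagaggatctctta
Echs1, chr7:140116422-140116671, minus strand: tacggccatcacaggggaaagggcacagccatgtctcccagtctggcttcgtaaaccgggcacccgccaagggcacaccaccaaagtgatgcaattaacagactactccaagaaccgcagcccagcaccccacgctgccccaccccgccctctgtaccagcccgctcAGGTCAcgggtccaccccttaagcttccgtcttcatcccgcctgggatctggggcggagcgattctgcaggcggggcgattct
Ucp3, chr7:100472741-100472990, plus strand: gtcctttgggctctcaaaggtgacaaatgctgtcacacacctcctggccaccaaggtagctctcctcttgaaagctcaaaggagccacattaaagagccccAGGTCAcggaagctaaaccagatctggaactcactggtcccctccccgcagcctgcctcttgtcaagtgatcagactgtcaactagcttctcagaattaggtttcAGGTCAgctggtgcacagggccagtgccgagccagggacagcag
The half-site began 228 bases before the start in Cd36 and 83 in Echs1. Ucp3 had it at 149 and again at 44 bases before the start. Acot1 and Acot2 had no half-site in these windows, and their windows were identical at 50.2% of the 295 positions of an alignment. No protein-coding gene lies between them.

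The whole table showed heart tissue. The 11 cardiomyocyte markers had a summed level (log2 of the sum of their linear values) of 16.03 to 16.30 over all arrays, and Tnnt2, cardiac troponin T, lay between 13.04 and 13.49, against a highest value in the table of 13.49. Arrays of MCAO 24 h were less alike, at r = 0.963 to 0.980 with the rest of their group across genes, against 0.993 to 0.994 in MCAO 72 h. Residual SDs had a median over all genes of 0.192 at 24 h and 0.116 at 72 h, while the test shares 1 spread per gene between the times. For the members these medians were 0.219 and 0.152. In whole tissue, fewer cells of a type and less RNA per cell cannot be told apart.

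At 24 h after MCAO 6 members rose: both uptake genes, the thioesterases Acot1 and Acot2, the inner-membrane carnitine transferase Cpt2 and the isomerase Eci2. No member was called lower. With limma and Benjamini-Hochberg adjustment over all genes at 0.05, 6 of 29 members were called (20.7%), against 21.8% of all genes called, 11.1% higher and 10.8% lower. In this fit the share was thus near that of all genes, and the called members all lay in 1 direction. Among the 12005 genes above the median level 28.6% were called, with the same 6 members. A fit of the 24 h groups alone called 7 of 29 members, beside 9.14% of all genes. Array weights called 4 of 29, beside 13.6%. In the first fit 12 were higher and 2 lower at an unadjusted p under 0.05, or 14 of 29, beside 34.7% of all genes. The median log2 change of the 29 was 0.17 (22 positive, 7 negative), beside 0.0082 over all genes. In 6 of the 29 members every MCAO array lay above every sham array of that time, beside 2.88% of all genes. They were the 6 called genes, and since these were picked by their p, the separation is no further test of them.

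At 72 h, 5 members rose and 1 fell, 20.7% of 29 against 2.35% of all genes called (1.17% higher, 1.19% lower). Among the 12005 genes above the median level, which include the 29 members, 5.87% were called at 72 h, and 5 of the members. Cd36, Slc27a1, Acot2 and Eci2 were higher at both times. Decr1, a reductase for unsaturated chains, rose and Echs1, the short-chain enoyl-CoA hydratase, fell. At an unadjusted p under 0.05 there were 12 higher and 3 lower, or 15 of 29, beside 10.9% of all genes. The median log2 change was 0.18 (21 positive, 8 negative), beside 0.0015 over all genes. MCAO and sham arrays did not overlap at 72 h in Decr1, which was higher (1.77% of all genes), and in Acot13 and Echs1, which were lower (1.77%). Over both times 8 members were called and 21 were not called at either. The 72 h calls depended on single arrays: the count was 3 without sham 72 h replicate 2, 5 or 6 or MCAO 72 h replicate 2 or 6, and 2 without MCAO 72 h replicate 5. It was 9 without MCAO 72 h replicate 3.

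**Figure D1:**
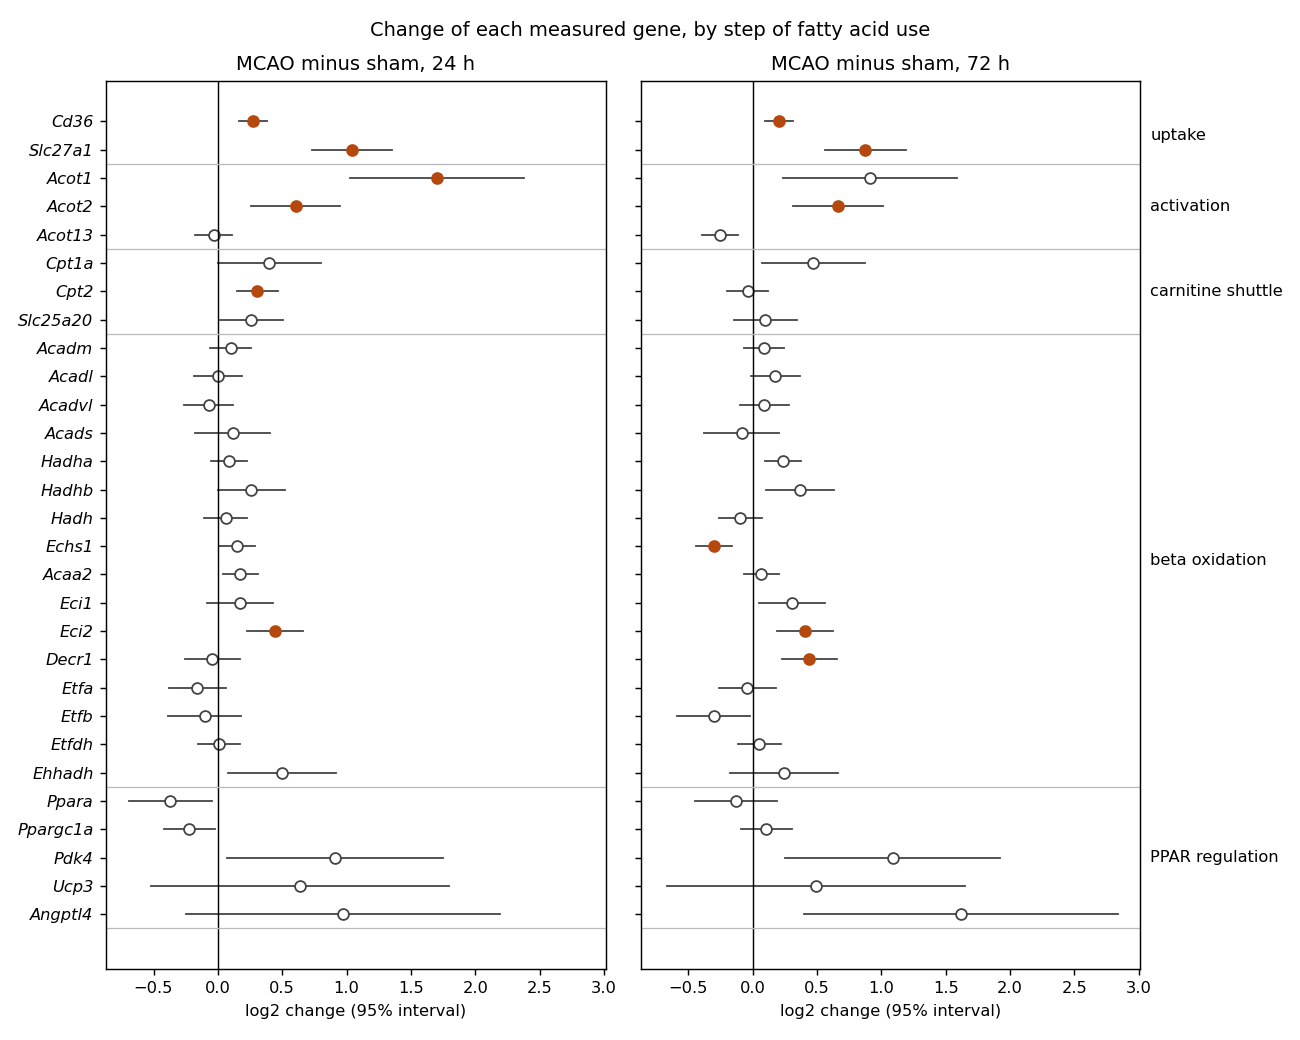
Log2 change (x axis) of each of the 29 measured genes (y axis, grouped by step) after MCAO against sham at 24 h (left) and 72 h (right), with 95% intervals from limma; filled points passed an adjusted p of 0.05. Both uptake genes are filled at both times, the acyl-CoA dehydrogenases lie between -0.09 and 0.18, and the intervals of Pdk4, Ucp3 and Angptl4 are the widest.

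Both measured uptake genes were called at both times. Slc27a1 encodes fatty acid transport protein 1, which moves long-chain fatty acids across the cell membrane and couples them to coenzyme A. Its level ran from 8.58 to 9.27 (median 8.94) in sham 24 h and from 9.58 to 10.20 (median 10.07) in MCAO 24 h, and the groups did not overlap. That is 2.06-fold (log2 change 1.04, SE 0.15, adjusted p = 5.84e-05). At 72 h it ran from 8.40 to 9.04 (median 8.75) in sham and from 8.998 to 9.89 (median 9.80) after MCAO. Only the lowest MCAO array, replicate 3 at 8.998, lay within the sham range, and the change was 1.83-fold (log2 change 0.88, SE 0.15, adjusted p = 0.00152). Slc27a1 kept both calls without each of the 24 arrays in turn.

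Cd36 encodes the main fatty acid translocase of the heart muscle cell. Its level was 12.14 to 12.42 (median 12.22) in sham 24 h and 12.44 to 12.56 (median 12.54) in MCAO 24 h. The groups were apart by 0.0137, with sham replicate 3 the closest, and the log2 change was 0.27 (SE 0.05, adjusted p = 0.000816), or 1.21-fold. In sham 72 h it was 12.10 to 12.25 (median 12.14) and in MCAO 72 h 12.19 to 12.46 (median 12.37), with overlap at 1 array on either side. The 72 h change of 0.20 (SE 0.05, adjusted p = 0.0373) was not called when any of sham 72 h replicates 2 to 6 or MCAO 72 h replicates 2, 4, 5 or 6 was left out (adjusted p between 0.0600 and 0.112).

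**Figure D2:**
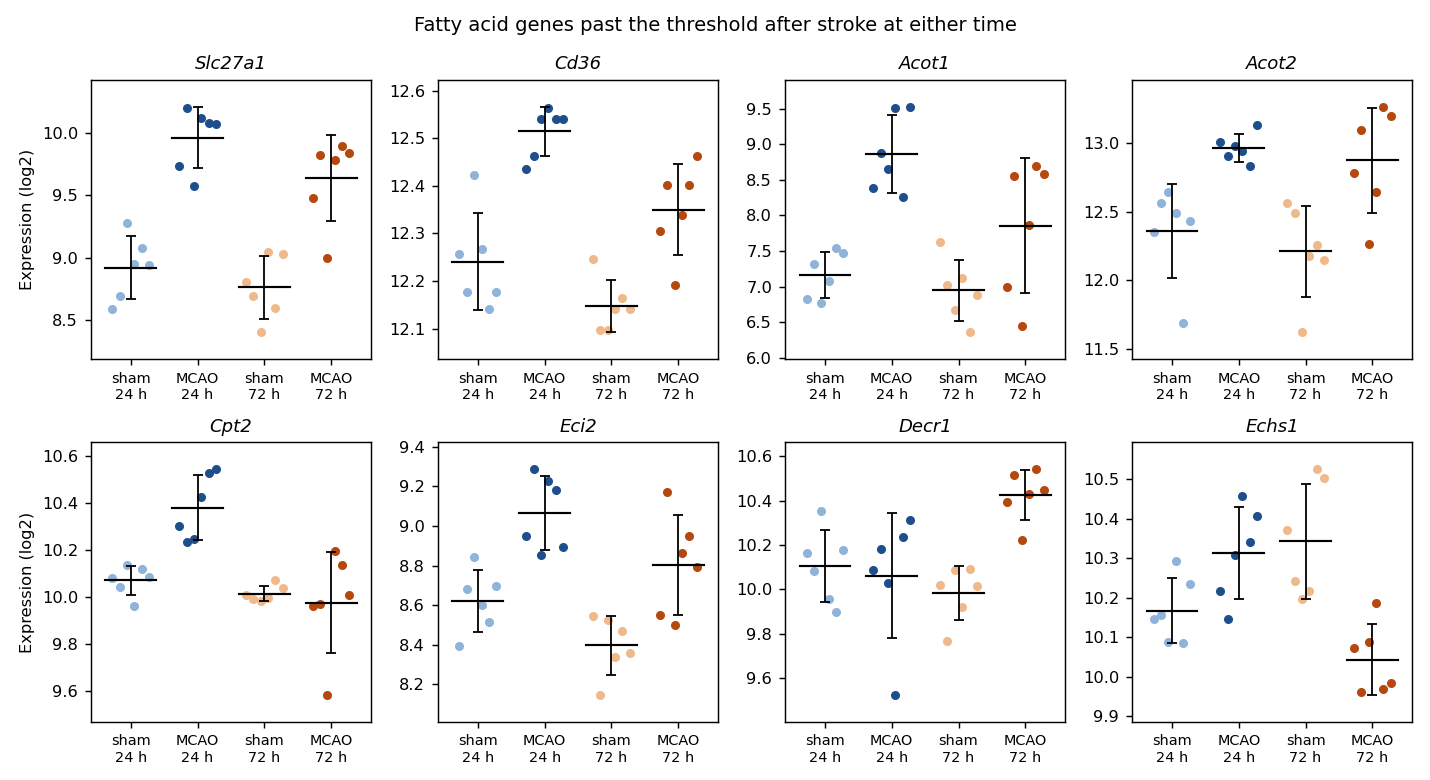
Log2 expression (y axis) of the 8 genes called at either time, in each of 6 arrays per group (points) for sham and MCAO at 24 h and 72 h (x axis), with the group mean and SD (bars). Every MCAO 24 h point of Slc27a1, Cd36, Acot1, Acot2, Cpt2 and Eci2 lies above the sham 24 h points, Decr1 is higher at 72 h, and Echs1 is lower at 72 h.

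Among the genes around activation, 3 thioesterases were measured. These enzymes split acyl-CoA back into free fatty acid and coenzyme A, Acot1 in the cytosol and Acot2 and Acot13 in mitochondria. Acot1 ran from 6.77 to 7.54 (median 7.19) in sham 24 h and from 8.26 to 9.53 (median 8.77) in MCAO 24 h, a gap of 0.72 between the groups. It had the largest change among the 29 genes at 24 h, 3.26-fold (log2 change 1.70, SE 0.33, adjusted p = 0.000835). At 72 h sham arrays lay between 6.36 and 7.63, while the MCAO arrays, replicates 1 to 6, had 6.99, 8.56, 6.45, 7.87, 8.70 and 8.58. Replicates 1 and 3 were thus within the sham range and the other 4 above it. The 72 h log2 change of 0.91 (SE 0.33, adjusted p = 0.186) was not called with all arrays and was called without MCAO 72 h replicate 3 (adjusted p = 0.0279). The difference between the changes at the 2 times, -0.79 (SE 0.46, adjusted p = 0.386), did not pass.

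Acot2 was 11.69 to 12.64 (median 12.46) in sham 24 h and 12.83 to 13.13 (median 12.96) in MCAO 24 h, with no overlap. The low end of the sham range was replicate 5 alone, and the other 5 sham arrays began at 12.35. The change was 1.52-fold (log2 change 0.60, SE 0.17, adjusted p = 0.0133) and 0.47 without that array. At 72 h, sham arrays ran from 11.63 to 12.56 and MCAO arrays from 12.27 to 13.26, which overlapped, for 1.58-fold (log2 change 0.66, SE 0.17, adjusted p = 0.0330). This call was lost without any of sham 72 h replicates 3, 4, 5 or 6 or MCAO 72 h replicates 2, 5 or 6 (adjusted p between 0.0594 and 0.105). Whether probes of the paralogs Acot1 and Acot2 read each other's transcripts was not tested, and the probe sequences were not analysed here.

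Acot13 had values of 11.10 to 11.29 in sham 24 h and 10.78 to 11.29 in MCAO 24 h, which overlapped. At 72 h it lay between 11.16 and 11.37 in sham and between 10.91 and 11.11 after MCAO, without overlap, yet its log2 change of -0.25 (SE 0.07, adjusted p = 0.0529) did not pass. It was called without MCAO 24 h replicate 5 or 6 or sham 72 h replicate 4 (adjusted p between 0.00186 and 0.0492). The MCAO 24 h arrays enter that test only through the spread shared by all groups.

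In the carnitine shuttle 1 of 3 measured genes was called at 24 h and 0 at 72 h. Cpt2, which turns carnitine esters back into acyl-CoA inside the mitochondrion, ran from 9.96 to 10.13 (median 10.08) in sham 24 h and from 10.23 to 10.54 (median 10.36) in MCAO 24 h. The groups were apart by 0.0996 and the change was 1.24-fold (log2 change 0.31, SE 0.08, adjusted p = 0.00653). At 72 h the sham arrays were within 9.98 to 10.07, whereas MCAO arrays spread from 9.59 to 10.20 around them, with replicate 3 the lowest (log2 change -0.04, SE 0.08, adjusted p = 1.00). The difference between the times was -0.35 (SE 0.11, adjusted p = 0.0954) and did not pass.

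Cpt1a encodes the outer-membrane transferase that is most abundant in liver and is also present in heart. Its log2 change was 0.40 (SE 0.19, adjusted p = 0.142) at 24 h and 0.47 (SE 0.19, adjusted p = 0.290) at 72 h, in 5 of 6 MCAO arrays above the sham mean each time. Slc25a20, the carrier that exchanges carnitine esters for carnitine, had 0.26 (SE 0.12, adjusted p = 0.122) and 0.10 (SE 0.12, adjusted p = 0.972). Sham and MCAO arrays of both genes overlapped at both times.

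Beta oxidation opens with the acyl-CoA dehydrogenases, none of which was called. These 4 enzymes take the first pair of electrons from chains of different length, and their genes had log2 changes between -0.07 (Acadvl) and 0.11 (Acads) at 24 h and between -0.09 (Acads) and 0.18 (Acadl) at 72 h. By limma 0 of the 4 passed at either time, and 0 had an unadjusted p under 0.05. Their 95% intervals bound the changes: for Acadm, the medium-chain enzyme, -0.06 to 0.26 at 24 h and -0.07 to 0.25 at 72 h, and for Acadvl, the very-long-chain enzyme, -0.26 to 0.12 and -0.10 to 0.28. Acadl was called at 72 h with array weights and in a fit of the 72 h groups alone.

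The electron transfer genes Etfa, Etfb and Etfdh hand those electrons on to ubiquinone. Their log2 changes were -0.16, -0.10 and 0.01 at 24 h and -0.04, -0.30 and 0.05 at 72 h, none called, with only Etfb at 72 h under an unadjusted p of 0.05. Etfb in sham 72 h ran from 10.68 to 11.52, the highest being replicate 3, and in MCAO 72 h from 10.49 to 10.74.

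Echs1 adds water to the double bond that the dehydrogenases form, and it was the member whose change differed between the times. Its level was 10.09 to 10.29 (median 10.15) in sham 24 h and 10.15 to 10.46 (median 10.33) in MCAO 24 h, which overlapped (log2 change 0.15, SE 0.07, adjusted p = 0.124). At 72 h it ran from 10.20 to 10.53 (median 10.31) in sham and from 9.96 to 10.19 (median 10.03) after MCAO. Every MCAO 72 h array lay below every sham 72 h array, by a gap of 0.0098, and the level was 1.23-fold lower (log2 change -0.30, SE 0.07, adjusted p = 0.0131). The change at 72 h differed from that at 24 h by -0.45 (SE 0.10, adjusted p = 0.0210), the 1 such call among 29 members, beside 1.79% of all genes. Sham hearts themselves were higher at 72 h than at 24 h by 0.18 (SE 0.07, unadjusted p = 0.0153, adjusted p = 1.00). Both Echs1 calls were kept without each of the 24 arrays in turn.

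The remaining enzymes of the spiral for saturated chains were not called. Hadha and Hadhb encode the subunits of the trifunctional protein, which carries out the later steps on long chains, and no protein-coding gene lies between them in RefSeq. At 24 h their log2 changes were 0.09 (SE 0.07) and 0.26 (SE 0.13), and at 72 h 0.24 (SE 0.07, adjusted p = 0.0653) and 0.37 (SE 0.13, adjusted p = 0.157), with 6 of 6 MCAO 72 h arrays above the sham mean for each. Hadha was called at 72 h without sham 24 h replicate 3, MCAO 24 h replicate 6 or MCAO 72 h replicate 3 (adjusted p between 0.0266 and 0.0305), and Hadhb without sham 24 h replicate 5 (adjusted p = 0.0400). Hadh, the short-chain hydroxyacyl-CoA dehydrogenase, had 0.06 and -0.10 (SE 0.08 each), and the thiolase gene Acaa2 0.17 (adjusted p = 0.0632) and 0.07 (SE 0.07 each).

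Unsaturated fatty acids need isomerases and a reductase before they can be oxidised, and 2 of the 3 genes for these were called. Eci2, an enoyl-CoA isomerase of mitochondria and peroxisomes, ran from 8.39 to 8.84 (median 8.64) in sham 24 h and from 8.86 to 9.29 (median 9.06) in MCAO 24 h. The groups were apart by only 0.0117, and the change was 1.36-fold (log2 change 0.44, SE 0.11, adjusted p = 0.00502). At 72 h it ran from 8.15 to 8.54 in sham and from 8.50 to 9.17 after MCAO, with a slight overlap, for 1.33-fold (log2 change 0.41, SE 0.11, adjusted p = 0.0401). The 72 h call was lost without any of sham 72 h replicates 2, 4, 5 or 6 or MCAO 72 h replicates 2, 4, 5 or 6 (adjusted p between 0.0610 and 0.121).

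Decr1, the mitochondrial dienoyl-CoA reductase, was called at 72 h and not at 24 h. At 24 h sham arrays lay between 9.90 and 10.35 and MCAO arrays between 9.53 and 10.31, which overlapped (log2 change -0.04, SE 0.10, adjusted p = 0.807). At 72 h sham arrays lay between 9.77 and 10.09 (median 10.02) and MCAO arrays between 10.22 and 10.54 (median 10.44), a gap of 0.13, for 1.36-fold (log2 change 0.44, SE 0.10, adjusted p = 0.0177). The difference between the times, 0.48 (SE 0.15, adjusted p = 0.0818), did not pass, so the timing was not shown to differ; without MCAO 24 h replicate 6 it was called (adjusted p = 0.0417). The 72 h rise was not called without sham 72 h replicate 2 or MCAO 72 h replicate 5 (adjusted p between 0.0542 and 0.0545). Eci1, the other mitochondrial isomerase, had 0.17 (SE 0.12) and 0.31 (SE 0.12, adjusted p = 0.278), and was called at 24 h (adjusted p = 0.00549) and at 72 h (adjusted p = 0.0217) without MCAO 24 h replicate 5. Ehhadh, the peroxisomal bifunctional enzyme, had 0.50 (SE 0.20, adjusted p = 0.0830) and 0.24 (SE 0.20, adjusted p = 0.877), and was called at 24 h without MCAO 24 h replicate 5 or sham 24 h replicate 3 (adjusted p between 0.0317 and 0.0353).

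None of the 5 genes of PPAR regulation was called at either time by limma. At an unadjusted p under 0.05 there were 1 higher and 2 lower at 24 h, beside 34.7% of all genes. At 72 h there were 2 higher and 0 lower, beside 10.9% of all genes. Ppara, the receptor, was 6.72 to 7.20 in sham 24 h and 6.03 to 6.998 in MCAO 24 h (log2 change -0.37, SE 0.16, adjusted p = 0.0908). Ppargc1a, the coactivator, was 9.82 to 10.03 and 9.36 to 10.02 (log2 change -0.22, SE 0.09, adjusted p = 0.0964). Both ranges overlapped, with MCAO reaching lower, and at 72 h the changes were -0.13 (SE 0.16) and 0.11 (SE 0.09). At 24 h Ppara was called lower without MCAO 24 h replicate 5, 6 or both (without either one, adjusted p between 0.0374 and 0.0436), and Ppargc1a without MCAO 24 h replicate 1 or 4 (adjusted p between 0.0221 and 0.04997).

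Pdk4, which inhibits pyruvate dehydrogenase and so turns the heart from glucose to fatty acids, ran from 10.62 to 12.09 (median 11.57) in sham 24 h and from 12.06 to 12.68 (median 12.31) in MCAO 24 h. A single pair of arrays overlapped, sham replicate 3 and MCAO replicate 1, and the log2 change was 0.91 (SE 0.41, adjusted p = 0.111). At 72 h sham arrays ran from 9.79 to 11.46, and MCAO replicates 1 to 6 had 10.91, 12.46, 9.39, 11.69, 12.23 and 12.49. Replicate 3 was below every sham 72 h array and replicate 1 within the sham range, while the other 4 lay above it (log2 change 1.09, SE 0.41, adjusted p = 0.214). Without replicate 3 of MCAO 72 h, Pdk4 was called at 72 h (adjusted p = 0.00896) and, through the shared spread, at 24 h (adjusted p = 0.0338). It was also called higher at 24 h in a fit of the 24 h groups alone.

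Ucp3, an uncoupling protein homologue of muscle mitochondria, and Angptl4, a secreted inhibitor of lipoprotein lipase, were similarly uneven. Ucp3 in MCAO 72 h replicates 1 to 6 was 7.19, 9.50, 5.09, 8.23, 9.02 and 9.45, against 7.02 to 8.58 in sham 72 h. Angptl4 was 4.92, 8.90, 4.79, 6.54, 6.51 and 8.26, against 4.53 to 5.97. In both genes replicates 1 and 3 were the lowest of their group. Their log2 changes at 72 h were 0.49 (SE 0.56, adjusted p = 0.961) and 1.62 (SE 0.59, adjusted p = 0.197), and at 24 h 0.64 (SE 0.56, adjusted p = 0.444) and 0.98 (SE 0.59, adjusted p = 0.249). The sham groups were spread too: in sham 24 h, replicates 1 and 2 were the lowest for Pdk4, Ucp3 and Angptl4, at 6.61 and 7.13 for Ucp3 against 8.23 to 8.99 in the other 4.

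Across members the low values fell on the same array. MCAO 72 h replicate 3 was the lowest of its group for 23 of 29 members and among the lowest pair for 24, and replicate 1 was among the lowest pair for 17. Over all genes replicate 3 had r = 0.993 to the rest of its group. This correlation of levels follows the differences between genes, so it cannot show whether a small set was shifted. How often each array was the lowest over all genes was not counted. Fkbp5, a glucocorticoid receptor target, and Myh7, the slow myosin heavy chain, both picked after their values were seen, were high in that array. In MCAO 72 h, Fkbp5 was 7.57 to 8.86 with replicate 3 at 8.48 and at most 7.08 in sham 72 h, and Myh7 was 11.20 to 12.16 with replicate 3 at 12.06 and at most 9.33 in sham 72 h. In the other groups, sham 24 h replicate 3 and MCAO 24 h replicate 6 were each the highest of their group for 17 members, and sham 72 h replicate 2 was the lowest for 12.

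**Figure D3:**
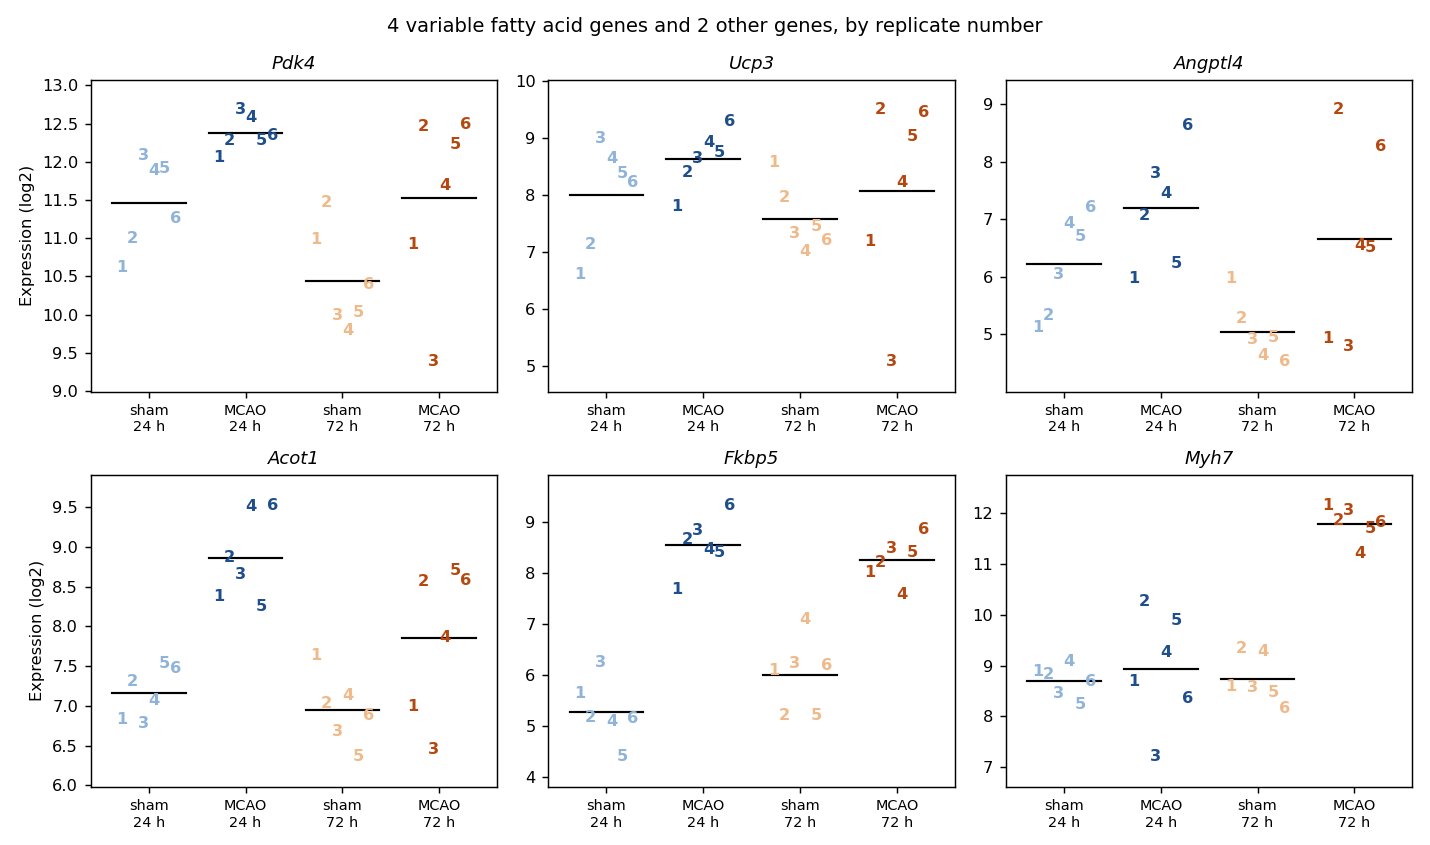
Log2 expression (y axis, own scale per panel) of Pdk4, Ucp3, Angptl4, Acot1, Fkbp5 and Myh7 in each array, drawn as its replicate number, for the 4 groups (x axis), with group means as lines. In MCAO 72 h the number 3 is at the bottom for Pdk4, Ucp3, Angptl4 and Acot1, but lies at 8.48 for Fkbp5 and 12.06 for Myh7, above every sham array.

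Between the sham groups, 0 of 29 members were called by limma at 72 h against 24 h, beside 0.0208% of all genes, with 4 members at an unadjusted p under 0.05, beside 3.69% of all genes. Those were Echs1 (0.18), Eci2 (-0.22), Ehhadh (-0.54) and Pdk4 (-1.02). The largest difference was in Angptl4, at -1.18 (SE 0.59, unadjusted p = 0.0581).

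Other genes of fatty acid use, 96 measured of 100 listed in 7 lists, were also compared. At 24 h 25 rose and 10 fell (36.5%, beside 21.8% of all genes), with a median log2 change of 0.11. At 72 h 6 rose and 3 fell (9.38%, beside 2.35%), with a median of -0.0005. Pnpla2, adipose triglyceride lipase, which frees fatty acids from stored fat, had the smallest p at 24 h. It ran from 10.33 to 10.66 in sham 24 h and from 11.37 to 11.81 in MCAO 24 h without overlap (log2 change 1.14, SE 0.09, adjusted p = 1.35e-07), and at 72 h from 10.40 to 10.74 and from 11.15 to 11.75, again without overlap (0.81, SE 0.09, adjusted p = 2.18e-05).

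**Figure D4:**
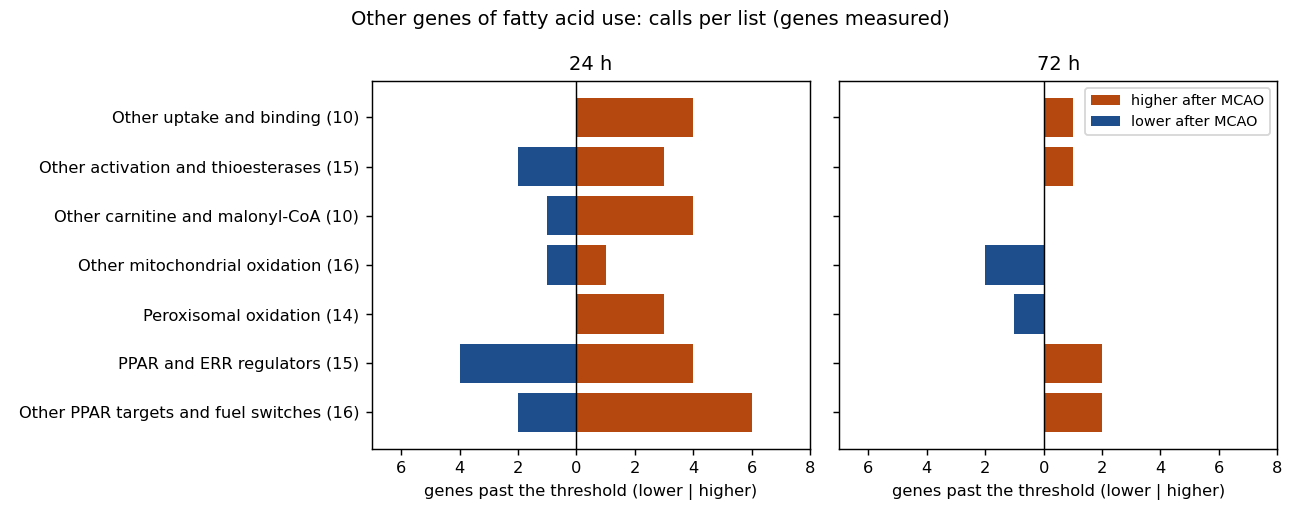
Number of genes called (x axis, lower to the left and higher to the right of 0) in each of 7 lists of other genes of fatty acid use (y axis, with the number measured), for MCAO against sham at 24 h (left) and 72 h (right). At 24 h 25 of 96 genes were higher and 10 lower; at 72 h 6 were higher and 3 lower.

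Of 10 other genes of uptake and binding 4 rose at 24 h and 0 fell. They were Gpihbp1 (log2 change 0.92), which anchors lipoprotein lipase on capillaries, the lipoprotein receptor gene Vldlr (0.64), the binding protein gene Fabp5 (0.51) and the transporter gene Slc27a4 (0.45). Of 15 further genes of activation, thioesterases and acyl-CoA binding 3 rose and 2 fell, with Acsl4 (0.62), a ligase that favours arachidonic acid, the acyl-CoA binding protein gene Dbi (0.27), Acbd3 (-0.51) and Acot11 (0.40) of smallest p. Of 10 genes of carnitine and malonyl-CoA 4 rose and 1 fell. The rising ones included Slc22a5 (0.63), the carnitine importer, and the acetyltransferase Crat (0.20). With them rose the acetyl-CoA carboxylases Acaca (0.61) and Acacb (0.35), which make malonyl-CoA, the inhibitor of the outer carnitine transferase. Fabp5, Slc27a4 and Acaca were dim, with sham 24 h means of 4.44, 4.81 and 4.65 beside the table's median of 4.16.

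Of 16 other mitochondrial oxidation genes Hsd17b10 (0.28) rose and Hibch (-0.26), of valine breakdown, fell at 24 h. Of 14 peroxisomal genes Abcd2 (0.71), a very-long-chain transporter, Pex11a (0.56) and the oxidase gene Acox3 (0.29) rose and 0 fell. Regulators were split, with 4 of 15 up and 4 down: Klf15 (1.17), a glucocorticoid-induced factor of lipid use, and Pparg (0.68) rose, and Perm1 (-0.72), a muscle regulator of oxidative genes, and Rxrg (-0.40) fell. Of 16 other targets and fuel switches 6 rose, among them Pnpla2 and the lipid droplet gene Plin5 (0.80), and 2 fell, Pdp1 (-0.80), a pyruvate dehydrogenase phosphatase, and Creb3l3 (-0.61).

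At 72 h Pnpla2, Klf15 (0.68), Gpihbp1 (0.59), Cidea (0.52), Pparg (0.48) and Dbi (0.39) were higher, and Hibch (-0.60), Acad11 (-0.47) and Amacr (-0.34) lower. Acad11, of the acyl-CoA dehydrogenase family, was the 1 gene of the 96 whose change differed between the times (-0.50, SE 0.13, limma adjusted p = 0.0498).

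Some markers of other cells were called too, in both directions, beside 21.8% of all genes at 24 h and 2.35% at 72 h. Of 8 endothelial markers, whose summed level was 11.90 to 12.12 in the 24 h groups, Gpihbp1, Tie1 (0.46) and Pecam1 (0.27) rose at 24 h and Kdr fell (-0.88), and at 72 h Gpihbp1 and Pecam1 (0.29) rose and Kdr fell (-0.68). The summed level was 11.93 to 12.12 in sham 24 h, 11.90 to 12.06 in MCAO 24 h, 11.82 to 11.97 in sham 72 h and 11.76 to 11.97 in MCAO 72 h. Cd36 is also made by endothelial and fat cells, and the part of these markers in its rise was not tested.

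Fat cell markers, 6 measured of 8, summed to 11.09 to 11.67 in sham 24 h, 11.25 to 11.998 in MCAO 24 h, 11.29 to 11.68 in sham 72 h and 11.04 to 11.60 in MCAO 72 h, a level carried by Fabp4, which capillary cells also make. Adipoq, the defining gene of fat cells, lay between 3.11 and 3.82 over all arrays, near the table's lowest value of 2.78. Cidec alone of the 6 was called (0.39, limma adjusted p = 0.0380, 24 h). It was dim too, with means of 3.76 in sham 24 h and 4.16 in MCAO 24 h beside the table's median of 4.16. Of 11 cardiomyocyte markers Myh6 (-0.33), Ryr2 (-0.18) and Ttn (-0.17) fell at 24 h and by limma 0 were called at 72 h (3 at an unadjusted p under 0.05, lower). Their summed level was 16.17 to 16.28 in sham 24 h, 16.03 to 16.20 in MCAO 24 h, 16.19 to 16.30 in sham 72 h and 16.04 to 16.21 in MCAO 72 h. Of 6 fibroblast markers Lum, Col1a1 and Dpt were called lower at 24 h and 0 higher, with 4 changes negative and 2 positive. Of 8 skeletal muscle markers Tnnt3, Tnni2 and Myh4 were called lower and 0 higher, with 5 negative and 3 positive. By limma 0 of either list were called at 72 h. At an unadjusted p under 0.05 there were then 1 higher and 3 lower fibroblast markers and 0 skeletal muscle markers. Tnnt3, Tnni2 and Myh4 were dim, with sham 24 h means of 4.45, 4.46 and 3.45 beside the table's median of 4.16. Of 6 brown fat markers Cidea was called higher at both times and 0 were called lower. At 72 h 4 of the 6 changes were negative and 2 positive, with 1 lower at an unadjusted p under 0.05. Mean Cox8b was 11.67 in sham 72 h and 11.32 in MCAO 72 h, and mean Cox7a1 12.23 and 11.96. The summed level was 12.89 to 13.33 in sham 72 h and 12.54 to 13.09 in MCAO 72 h. Ucp1 was dim, with a sham 24 h mean of 3.72. By limma 0 of 6 macrophage and 0 of 6 atrial markers were called at either time, with 2 of each list at an unadjusted p under 0.05 at 24 h, and 1 and 0 at 72 h.

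Odorant and vomeronasal receptor genes, 1365 in all, were used for a covariate, and whether any of them has a role in heart was not examined. Their first principal component lay between -3.01 and -0.16 in MCAO 24 h and between 0.23 and 1.28 in the other groups, so that it cannot be told apart from MCAO at 24 h. With it as a covariate the 24 h count of called members was 0, beside 1.34% of all genes. The log2 changes were then 1.70 (SE 0.60) for Acot1, 0.81 (SE 0.27) for Slc27a1, 0.35 for Eci2, 0.31 for Acot2, 0.18 for Cd36 and 0.13 for Cpt2, and the median SE of the members was 0.19 in place of 0.11. The 6 calls at 72 h stayed past the threshold in that fit.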

How the data were processed

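Heart total RNA (Trizol) was turned into biotinylated cRNA and read on 24 Affymetrix arrays, per the labels' protocols. The description of the 72 h samples names 24 h, while their titles and other labels give 72 h, which was used. The authors deposited log2 values for 24973 identifiers (2.78 to 13.49, median 4.16). The log2 base and a quantile normalization by the authors were inferred from the values: sorted values were the same in 23 arrays and differed by at most 0.00191 in the other. How probes were summarized, and the build, is not given in the sources used here. HOMER is named in the submitters' processing notes, with no version. No detection limit or scan batch was analysed here, and the number of arrays limits the precision.

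Of the identifiers 24015 had 1 symbol and 958 had no name here. Where a symbol had several identifiers (4 symbols), that of highest mean was used, giving 24011 genes. They were tested with limma 3.58.1 in R 4.3.3 (lmFit, eBayes, 4 group means, 24 arrays, residual degrees of freedom 20), and p-values were adjusted over all genes by the Benjamini-Hochberg method, with calls at 0.05. Adjusted p-values are limma's, standard errors are moderated and intervals are 95%. The code was tested on simulated data. All called members are given with their values; other pathway genes are named up to 4 a list by smallest p at 24 h, and all called at 72 h. The members, the pathway and marker lists and the settings were chosen with earlier results of these data known. The replicate numbers did not pair the arrays: 3 of 36 same-numbered pairs deviated together with r over 0.1 (range -0.23 to 0.15). Alternatives were a trended and robust prior, cyclic loess, median centring, scale normalization, leaving out dim genes, averaging identifiers, array weights, the replicate block, fits of only the groups compared, an unmoderated model, the receptor gene covariate, and leaving out each array or MCAO 24 h replicates 5 and 6. A fit that left out replicate 5 of sham 24 h together with replicate 3 of sham 72 h was added after the data were seen. Of the 33 genes, 25 measured ones had a RefSeq promoter window that was used. For the members, but not for all windows, a chromosome was left out of the search. Acot13, Decr1, Angptl4 and Acaa2 are named only.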

Additional observations from a re-analysis of the deposited data

Results flagged for a closer look

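Of 116 sets of 6 arrays (29 genes in 4 groups), 13 had an array far from the other 5 by Dixon's test at 95%. Chance flags about 1 in 20 such sets.

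In MCAO 24 h the far arrays were replicate 6 for Acot13 (10.78), Slc25a20 (11.03) and Etfdh (11.65), replicate 5 for Acadl (11.61) and Eci1 (9.47), and replicate 4 for Decr1 (9.53). In MCAO 72 h they were replicate 3 for Slc25a20 (9.80) and Hadha (12.32), and replicate 2 for Ppargc1a (9.89). In sham 24 h they were replicate 5 for Acot2 (11.69), replicate 3 for Hadha (12.61) and replicate 1 for Ppargc1a (10.03), and in sham 72 h replicate 3 for Etfb (11.52). The Slc25a20 value of MCAO 24 h and the Hadha, Ppargc1a and Etfb values of the sham groups were the highest of their group, the others the lowest.

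The Echs1 change differed between the times by -0.45 (SE 0.10, limma adjusted p = 0.0210), from 0.15 at 24 h to -0.30 at 72 h.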

How the results depend on the processing

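The 24 h count of 6 called genes was 0 with the receptor gene covariate and 4 to 8 in the other 12 settings, and 6 to 9 without each array in turn. The adjusted p of its genes ranged up to 0.663 (Cpt2) over all settings, and array weights lost Acot2 and Cpt2. The fit of only the groups compared gained Pdk4, and that without MCAO 24 h replicates 5 and 6 gained Eci1 and, lower, Ppara. The 72 h count of 6 was 11 with array weights, 10 in a fit of only the groups compared, both gaining Acadl, Hadha, Hadhb, Eci1 and Acot13 and the latter losing Acot2, and 4 to 9 in the other 11 settings. It ranged from 2 to 9 without each array in turn. The unmoderated model lost Acot2 and Eci2 at 72 h. Cd36 at 72 h was not called with the trended and robust prior, the filter on dim genes, the replicate block or after leaving out replicate 5 of sham 24 h together with replicate 3 of sham 72 h. The count of 1 for the difference between the times was 2 with array weights, 3 without MCAO 24 h replicates 5 and 6, and 0 with the receptor gene covariate, where the cause was not tested, and 1 to 3 without each array in turn. The sham count was 0 in all settings. The replicate block gave 6, 4, 1 and 0 calls, losing Cd36 and Eci2 at 72 h; the same number was the best match in 7 of 72 checks. No direction of a called gene reversed. Over all genes the 24 h count of 5237 was 3259 with array weights, 2194 with only the groups compared, 3438 of 12005 with the filter and 321 with the covariate. At 72 h 565 became 1905, 1410 and, without MCAO 24 h replicates 5 and 6, 1103. For the difference 430 (1.79%) became 1079 without those arrays, 218 of 12005 with the filter (1.82%) and 5 with the covariate. Low values carried no detection limit here.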
